A study of Mus musculus with 16 samples.

Results

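The housing effect difference is the gap between isolated and grouped mice at 20 weeks of age minus the same gap at 15 weeks, taken for every gene. It asks whether living alone changed the mammary gland differently at the later age, and which genes lay on opposite sides of the grouped level at the 2 ages. All 16 of 16 arrays of the series entered it, 4 for each of grouped and isolated mice at 15 and at 20 weeks. It was measured on 18193 genes, each represented by the probe set with the highest mean among those carrying its symbol. The mice in every group were FVB/N females homozygous for the SV40 large Tag oncogene, placed under a C3(1) piece of a rat promoter, that of the prostatic steroid binding protein. No group without the transgene was analysed here. From weaning they lived either in groups or alone, in cohorts balanced for behaviour. The thoracic mammary gland was taken during the dark phase from mice in estrus. Replicate arrays are numbered in the labels, which do not state that each number is a separate animal, so a p-value here reflects only the spread among these samples, which may be technical.

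The mammary gland is a branching epithelium set in a fat pad. Its luminal cells can make milk proteins, its basal cells contract in response to oxytocin, and adipocytes, fibroblasts, vessels and immune cells surround both. The fat cells can build fatty acids from glucose, a pathway in which ATP-citrate lyase supplies acetyl-CoA, acetyl-CoA carboxylase makes malonyl-CoA, and ChREBP and SREBP switch on the genes. Macrophages take part in remodelling of the gland and its matrix, and strips of body-wall muscle can lie against a dissected gland. Markers of the labelled tissue were present: mean log2 levels ranged over the 4 groups from 12.67 to 14.15 for Adipoq, the fat cell hormone adiponectin, and from 11.86 to 12.44 for Krt8, a luminal keratin. Each value comes from whole tissue, in which fewer cells of a type and less RNA per cell cannot be told apart.

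The arrays of each age had a distribution of their own, with array medians of 8.09 to 8.11 at 15 weeks and 8.31 to 8.34 at 20 weeks on the log2 scale. Each housing difference was therefore taken within an age, where such an offset cancels, and the 2 differences were then compared. The median gene had a difference of -0.009 at 15 weeks and -0.008 at 20 weeks, and the median of the difference between ages was -0.008. Within groups, the median standard deviation of a gene was 0.103 at 15 weeks and 0.109 at 20 weeks. Replicates were not equally alike. Grouped replicate 1 at 15 weeks was high in lymphocyte genes and low in fatty acid synthesis genes, and isolated replicate 4 at 20 weeks was close to the grouped arrays in fatty acid synthesis genes. The latter array also had the highest 20-week means of the white adipocyte, fatty acid oxidation and thermogenic fat lists. Isolated replicate 1 at 20 weeks was low in muscle, endothelial and macrophage genes, isolated replicate 3 at 20 weeks was high in T cell genes, and grouped replicate 3 at 20 weeks was high in macrophage genes. Values without a single array are given beside those it moves most.

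Across genes, the differences at the 2 ages ran in opposite directions more than in the same direction. Opposite signs were found in 9825 genes (54%), of which 4849 were higher in isolated mice at 15 weeks and lower at 20 weeks and 4976 were the reverse. Over the 18193 genes Pearson's r between the differences was -0.28 and Spearman's rho was -0.18. The 2 differences share no array, but genes are not independent replicates, so these are descriptions. Among the 9097 genes at or above the median level r was -0.34, and among the 9096 below it r was -0.22 while rho was -0.014. With single arrays left out r ranged from -0.35 to -0.15. It was -0.15 without grouped replicate 4 at 20 weeks, -0.18 without grouped replicate 1 at 15 weeks, and -0.12 with both grouped replicate 1 at 15 weeks and isolated replicate 4 at 20 weeks left out.

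**Figure D1:**
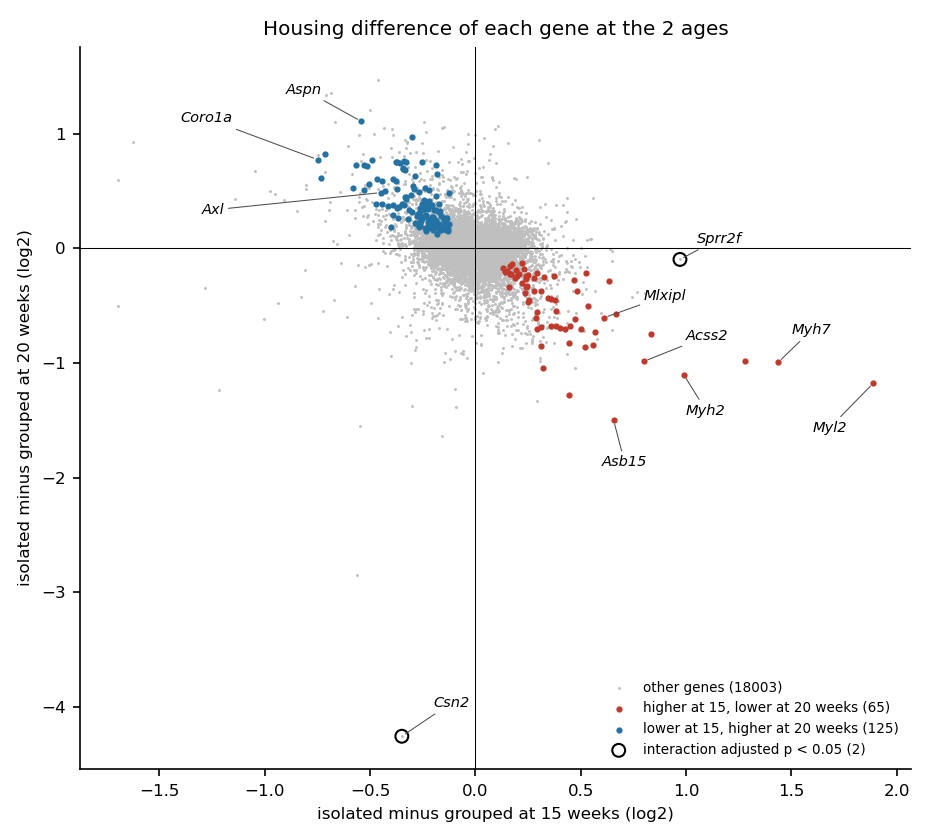
Each point is a gene, with the isolated minus grouped difference at 15 weeks on the horizontal axis and at 20 weeks on the vertical axis (both log2). Red points are the 65 genes that were higher at 15 and lower at 20 weeks with an unadjusted p under 0.05 at each age, blue points the 125 that were the reverse, and the 2 ringed genes, Csn2 and Sprr2f, passed the test of the difference between ages.

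In the fit of all 16 arrays, the housing difference changed with age in 2 genes (0.011% of those tested) at a limma adjusted p under 0.05, Csn2 and Sprr2f, and both changes were negative. No gene passed in the positive direction, although 1317 genes (7.24%) did so at an unadjusted p under 0.05, as did 996 (5.47%) in the negative direction, together 2313 (12.7%). Neither of the 2 genes turned sign, because each differed with housing at a single age. Csn2 encodes beta-casein, a main protein of milk, and Sprr2f encodes a small proline-rich protein of keratinising epithelia. Their upstream 250 bases are shown because these are the only genes past the threshold, in lower case with the searched motifs in capitals, 5′ to 3′ on the gene's own strand (RefSeq, GRCm38.p6). The Csn2 window lies at chr5:87699426-87699675 on the minus strand and the Sprr2f window at chr3:92364937-92365186 on the plus strand.
Csn2: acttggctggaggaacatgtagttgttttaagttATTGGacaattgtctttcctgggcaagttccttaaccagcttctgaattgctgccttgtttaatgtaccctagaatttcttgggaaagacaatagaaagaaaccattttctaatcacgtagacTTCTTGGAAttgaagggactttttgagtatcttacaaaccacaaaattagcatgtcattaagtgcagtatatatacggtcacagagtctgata
Sprr2f: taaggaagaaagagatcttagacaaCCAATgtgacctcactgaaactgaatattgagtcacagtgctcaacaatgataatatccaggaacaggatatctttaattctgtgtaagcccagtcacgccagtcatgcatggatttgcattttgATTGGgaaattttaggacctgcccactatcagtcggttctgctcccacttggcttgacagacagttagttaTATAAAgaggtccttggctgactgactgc
The capitals in Csn2 mark, in order, CCAAT read on the opposite strand and a TTCNNNGAA, the letters of a STAT site, at positions -93 to -85 from the start. In Sprr2f they mark CCAAT on each strand and then a TATAAA at positions -29 to -24 from the start. A match describes letters and is not evidence of a bound factor.

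Csn2 levels in grouped mice at 15 weeks were 11.57, 12.93, 11.46 and 11.81 on the log2 scale, and in isolated mice 11.32, 11.89, 11.13 and 12.02. At 20 weeks grouped mice had 10.69, 11.46, 11.12 and 11.36, while isolated mice had 6.31, 7.44, 6.21 and 7.64. The groups overlapped at 15 weeks, and at 20 weeks all 4 isolated arrays lay far below all 4 grouped arrays. The housing difference was -0.35 at 15 weeks (adjusted p = 0.695) and -4.26 at 20 weeks (adjusted p = 0.00671). The isolated values of 6.31 and 6.21 lie below the lower quartile of the 20-week arrays (6.98 to 7.04), where expression above background is not shown, so no exact fold is given. The other Csn2 probe set had a smaller 20-week difference of -2.01 and a change with age of -1.64. On the probe set used, the change with age was -3.91 (SE 0.50, adjusted p = 0.0158). With single arrays left out the change ranged from -4.24 to -3.68 and its adjusted p from 0.000984 to 0.0697. The call was lost without grouped replicate 1, isolated replicate 2 or isolated replicate 4 at 15 weeks (adjusted p = 0.051, 0.0673 and 0.0697) and without grouped replicate 2 or 4 at 20 weeks (0.0674 and 0.0673). It was also lost on the mean of all Csn2 probe sets (-2.77, adjusted p = 0.0711). With the 3′ to 5′ Gapdh signal as a covariate, the 15-week difference was 0.58 and the change -4.30 (adjusted p = 0.0396).

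Sprr2f levels at 15 weeks were 5.62, 6.27, 5.86 and 5.86 in grouped mice and 6.97, 6.83, 6.70 and 6.99 in isolated mice. At 20 weeks they were 5.43, 5.68, 5.53 and 5.80 in grouped mice and 5.51, 5.50, 5.57 and 5.48 in isolated mice. Isolated arrays were all higher at 15 weeks, and the 20-week groups overlapped. The difference was 0.97 at 15 weeks (adjusted p = 0.0250) and -0.097 at 20 weeks (adjusted p = 0.711), and its change with age was -1.07 (SE 0.15, adjusted p = 0.0352). Most of these levels lie below the lower quartile of the arrays, which was 6.76 to 6.79 at 15 weeks and 6.98 to 7.04 at 20 weeks, so expression above background is not shown. The call was kept in 17 of 27 alternative settings, and with single arrays left out the adjusted p ranged from 0.000984 to 0.139. The arrays whose removal ended it were grouped replicates 1 and 4 and isolated replicates 1, 2 and 4 at 15 weeks, and grouped replicates 2 and 4 and isolated replicates 2 and 3 at 20 weeks. The number of genes past the threshold depended on single arrays in both directions. It was 0 without any of grouped replicate 1, isolated replicate 2 and isolated replicate 4 at 15 weeks or grouped replicates 2 and 4 at 20 weeks, and 1 without isolated replicate 1 at 15 weeks or isolated replicate 3 at 20 weeks. It was 5 without isolated replicate 1 at 20 weeks, 13 without grouped replicate 3 at 15 weeks, 86 without grouped replicate 3 at 20 weeks (81 positive, 5 negative) and 139 without isolated replicate 4 at 20 weeks (28 positive, 111 negative).

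A gene was counted as turning sign where isolated and grouped mice differed at an unadjusted p under 0.05 at each age in opposite directions. Turning was found in 190 genes (1.04%). Of these, 65 (0.357%) were higher in isolated mice at 15 weeks and lower at 20 weeks, and 125 (0.687%) were lower at 15 weeks and higher at 20 weeks. A difference of the same sign at both ages by the same rule was found in 36 genes (0.198%). That split depended on scaling: it was 103 against 107 after quantile normalization of all arrays together and 113 against 91 after cyclic loess. The first set had a median size of 0.32 at 15 weeks and 0.44 at 20 weeks, and the second had 0.25 and 0.34 (log2). None of the 190 passed the test of the difference between ages, where their adjusted p ran from 0.127 to 0.306, so the turn of each gene is a pair of unadjusted calls. Just inside the rule were Tmem52, Pick1 and Pigx, with larger p-values of 0.0497, 0.0496 and 0.0495. Just outside were Parvg, Ppip5k1 and Fcgr3 with 0.0501, 0.0502 and 0.0502. The count was 358 without grouped replicate 3 at 15 weeks, 293 without grouped replicate 3 at 20 weeks, 112 without isolated replicate 3 at 15 weeks, 109 without isolated replicate 2 at 20 weeks and 79 without grouped replicate 4 at 20 weeks. The backgrounds for a single age were 1764 genes (9.7%) at 15 weeks and 1545 (8.49%) at 20 weeks at an unadjusted p under 0.05. Groups were apart, with all 4 isolated arrays on 1 side of all 4 grouped arrays, in 1035 genes (5.69%) at 15 weeks and 765 (4.2%) at 20 weeks. By ranks, 41 genes (0.225%) had 4 isolated and 4 grouped arrays fully apart at both ages in opposite order, 10 (0.055%) higher then lower and 31 (0.17%) lower then higher, against 8 genes (0.044%) apart in the same order. By that rule quantile normalization gave 48 genes, 21 against 27, and cyclic loess gave 42, 22 against 20.

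Genes of fatty acid synthesis lay higher in isolated mice at 15 weeks and lower at 20 weeks. Of the 23 genes listed for this pathway, all measured, 21 had that order, against 26.7% of all genes, and all 23 had a negative change with age. An unadjusted p under 0.05 was reached by 18 of 23, against 5.47% of all genes in that direction, and 0 of 23 passed after adjustment. The list's median difference was 0.32 at 15 weeks and -0.61 at 20 weeks, and the median change was -0.98, against -0.008 over all genes. Turning sign were 10 members, against 0.357% of all genes in that direction. They were Mlxipl, Acss2, Acly, Acaca, Slc25a1, Me1, Elovl6, Dgat2, Lpin1 and Pnpla3. Several of these were named for this count after their values were seen. A publication on these arrays drew attention to this pathway, so the list is not independent evidence of its direction. The upstream windows of Elovl6, a fatty acid elongase, at chr3:129532136-129532385 (plus strand) and of Acly at chr11:100528001-100528250 (minus strand) are shown as examples of members that moved together.
Elovl6: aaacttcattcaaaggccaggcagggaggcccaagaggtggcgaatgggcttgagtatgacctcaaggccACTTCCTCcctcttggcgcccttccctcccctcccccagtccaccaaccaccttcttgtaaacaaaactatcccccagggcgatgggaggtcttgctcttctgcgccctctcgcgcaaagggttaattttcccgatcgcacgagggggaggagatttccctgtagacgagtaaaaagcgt
Acly: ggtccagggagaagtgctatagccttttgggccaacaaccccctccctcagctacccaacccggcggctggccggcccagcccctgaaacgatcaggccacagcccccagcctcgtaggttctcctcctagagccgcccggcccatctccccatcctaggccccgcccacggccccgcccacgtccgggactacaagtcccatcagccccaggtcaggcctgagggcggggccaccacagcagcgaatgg
The capitals in Elovl6 mark GAGGAAGT, the letters of an ETS-type site, on the opposite strand, and none of the searched motifs was in the Acly window.

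Mlxipl encodes ChREBP, the factor that couples carbohydrate supply to fat synthesis genes. Its levels were 11.05, 11.35, 11.43 and 11.19 in grouped and 11.81, 11.64, 12.18 and 11.83 in isolated mice at 15 weeks. At 20 weeks they were 10.82, 10.64, 10.69 and 11.27 in grouped and 9.83, 10.11, 10.21 and 10.84 in isolated mice. The 15-week groups were apart, and at 20 weeks isolated replicate 4 alone reached into the grouped range. The difference was 0.61 at 15 weeks and -0.61 at 20 weeks, with a change of -1.22 (SE 0.26, adjusted p = 0.156). With single arrays left out that adjusted p ranged from 0.0121, without isolated replicate 4 at 20 weeks, to 0.36. Acss2, which makes acetyl-CoA from acetate in the cytosol, had 10.47, 12.00, 12.19 and 12.18 in grouped and 12.46, 12.42, 12.57 and 12.58 in isolated mice at 15 weeks. At 20 weeks Acss2 had 11.20, 10.67, 11.17 and 11.52 in grouped and 9.63, 9.85, 9.84 and 11.30 in isolated mice. The low grouped value at 15 weeks was replicate 1, and the high isolated value at 20 weeks was again replicate 4. The Acss2 differences were 0.80 and -0.99, and the change was -1.79 (SE 0.52, adjusted p = 0.213). Without grouped replicate 1 the 15-week difference was 0.39.

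Acly, ATP-citrate lyase, had 13, 13.50, 13.61 and 13.79 in grouped and 13.91, 13.87, 13.97 and 14.04 in isolated mice at 15 weeks. At 20 weeks Acly had 13.41, 13.07, 13.44 and 13.54 in grouped and 12.40, 12.48, 12.53 and 13.61 in isolated mice. All isolated arrays were higher at 15 weeks, and 3 of 4 were lower at 20 weeks, while isolated replicate 4 was above every grouped array. The differences were 0.47 and -0.62 (change -1.09, SE 0.31, adjusted p = 0.203). Acaca, acetyl-CoA carboxylase, differed by 0.45 and -0.82 (change -1.27, SE 0.37, adjusted p = 0.208), with overlapping groups at both ages. With grouped replicate 1 left out, the 15-week differences were 0.31 for Acly, 0.24 for Acaca and 0.21 for Dgat2. Dgat2, which completes triglyceride synthesis, differed by 0.32 and -1.04 (change -1.37, adjusted p = 0.178). Elovl6 differed by 0.57 and -0.73, the mitochondrial citrate carrier Slc25a1 by 0.50 and -0.71, and malic enzyme Me1 by 0.67 and -0.58. The main synthase of the pathway, Fasn, differed by 0.14 and -0.75, and the desaturase Scd1 by 0.024 and -0.28, neither of which is a turn by the rule. Mean levels of the list by array were 11.85 to 12.54 in grouped and 12.51 to 12.67 in isolated mice at 15 weeks, and 11.70 to 12.02 and 10.94 to 12.00 at 20 weeks. The isolated array at 12.00 was replicate 4, and the other 3 were at or below 11.12. With it left out the list's median change was -1.33, and 17 of 23 members passed in the negative direction, against 111 of 18193 genes. No other removal of a single array gave more passing genes. With grouped replicate 1 at 15 weeks also left out the median change was -1.11, and the 15-week median 0.21. Over all removals of a single array the median change ranged from -1.33 to -0.74.

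Genes of glucose use had medians nearer to 0. Among 13 genes of glucose uptake and glycolysis, 8 were higher at 15 weeks and lower at 20 weeks, against 26.7% of all genes, and 3 had an unadjusted p under 0.05 for a negative change, against 5.47%. The medians were 0.12 and -0.080, and that of 15 weeks was 0.021 without grouped replicate 2. Slc2a4, the insulin-responsive glucose transporter, had 11.50, 11.51, 11.92 and 11.48 in grouped and 11.90, 11.90, 12.16 and 11.99 in isolated mice at 15 weeks. At 20 weeks it had 11.07, 11.12, 11.28 and 11.43, and 10.11, 10.60, 10.76 and 11.21. It was the only turning member of this list, against 0.357% of all genes in that direction. Its differences were 0.38 and -0.55 (change -0.93, SE 0.24, adjusted p = 0.186). Hk2, the hexokinase of muscle and fat, differed by 0.48 and -0.56 (change -1.04, SE 0.34, adjusted p = 0.246). Without isolated replicate 1 the 20-week differences were -0.36 for Slc2a4 and -0.34 for Hk2. Slc2a5, a fructose transporter, differed by 0.43 and -0.20 (change -0.63, adjusted p = 0.156). Of 17 white adipocyte genes, 12 were lower in isolated mice at 15 weeks and 17 were lower at 20 weeks, with medians of -0.067 and -0.73, or -0.46 at 20 weeks without isolated replicate 1. The groups overlapped at 20 weeks: the list's mean was 11.45 to 11.66 in grouped mice and 11.71 in isolated replicate 4. The other isolated arrays were at 10.08 to 10.84. The sign of this list's median was the same at both ages, but its 15-week median became 0.002 after quantile normalization and 0.032 after cyclic loess. Adipoq differed by -0.14 and -0.92 (change -0.77, SE 0.27, adjusted p = 0.271). Cholesterol synthesis, with 17 genes, had a median of 0.23 at 15 weeks and -0.048 at 20 weeks, and 7 of 17 had an unadjusted p under 0.05 for a negative change, against 5.47% of all genes. The 15-week median was 0.13 without grouped replicate 1.

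**Figure D2:**
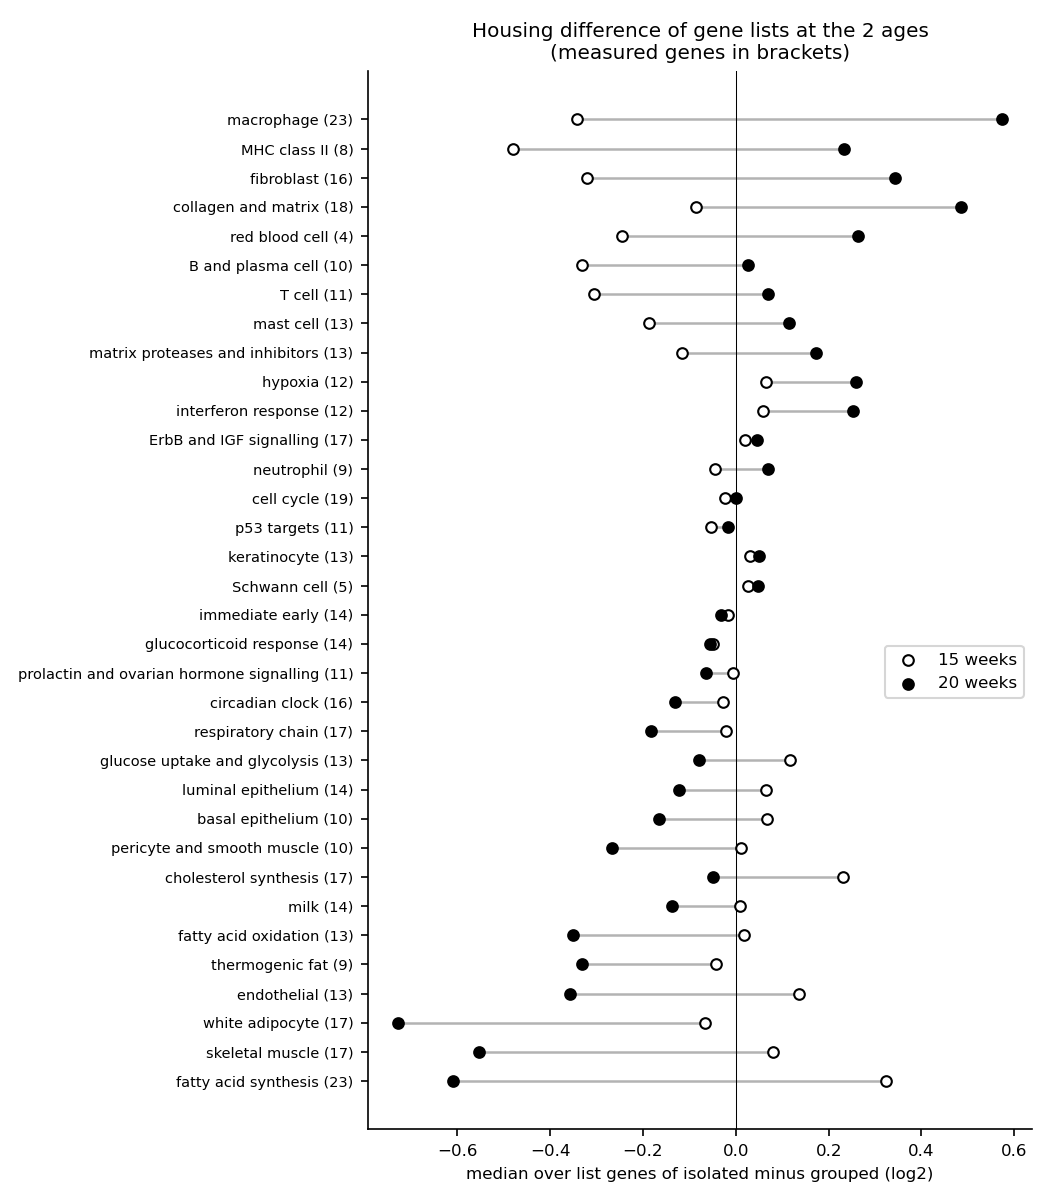
Median isolated minus grouped difference (log2) of the members of each of 34 gene lists, with open circles for 15 weeks and filled circles for 20 weeks. Fatty acid synthesis runs from 0.32 to -0.61 and skeletal muscle from 0.081 to -0.55, while macrophage genes run from -0.34 to 0.57. The 15-week muscle value was 0.002 with 1 array left out.

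Skeletal muscle genes had the same order. Of 17, 16 were higher in isolated mice at 15 weeks and lower at 20 weeks, against 26.7% of all genes. All 17 had a negative change, and 13 had an unadjusted p under 0.05, against 5.47%. Medians were 0.081 and -0.55, and 0 of 17 passed after adjustment. The 15-week median was small and ran from 0.002 to 0.16 with single arrays left out: without grouped replicate 2 it was 0.002 and 10 of 17 genes had the order, and without isolated replicate 4 it was 0.018 and 11 had it. Without isolated replicate 1 the 20-week median was -0.34. The turning members were Myh2, Myh7, Tnnt1 and Tnnc1, 4 of 17, against 0.357% of all genes in that direction. The muscle genes Myl2 and Asb15 also turned. Myh2, a fast myosin heavy chain, had 10.96, 10.29, 10.81 and 11.22 in grouped and 11.14, 12.17, 11.52 and 12.42 in isolated mice at 15 weeks. At 20 weeks Myh2 had 11.35, 11.91, 11.82 and 12.47 in grouped and 9.94, 11.11, 11.02 and 11.07 in isolated mice. The groups overlapped narrowly at 15 weeks and were apart at 20 weeks. Its differences were 0.99 and -1.10, and its change was -2.09 (SE 0.45, adjusted p = 0.156). The slow-fibre genes were less even between arrays. Myl2, a myosin light chain of slow fibres, had 7.60, 8.64, 7.36 and 7.79 in grouped and 8.57, 11.02, 8.43 and 10.93 in isolated mice at 15 weeks. At 20 weeks Myl2 had 9.87, 9.15, 9.82 and 10.59 in grouped and 8.39, 9.88, 9.17 and 7.29 in isolated mice. Isolated replicates 2 and 4 at 15 weeks carried most of its difference of 1.89, and the 20-week difference was -1.18 (change -3.07, SE 0.87, adjusted p = 0.197), or -0.71 without isolated replicate 4. Myh7, the slow myosin heavy chain, differed by 1.44 and -0.99 (adjusted p = 0.197), Tnnt1, slow troponin T, by 1.28 and -0.98 (0.200), and Tnnc1, slow troponin C, by 0.83 and -0.75 (0.210). The same 2 isolated arrays were the high ones for Myh7, Tnnt1 and Tnnc1 at 15 weeks. Asb15, a muscle ubiquitin ligase adaptor, differed by 0.66 and -1.50 (adjusted p = 0.178), or 0.43 at 15 weeks without isolated replicate 4. The list's mean ranged over arrays from 12.05 to 12.28 and 12.20 to 12.90 at 15 weeks (grouped, then isolated), and from 12.35 to 12.98 and 11.52 to 12.36 at 20 weeks. The labels do not give the amount of muscle in a sample, and its part in these differences was not tested.

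Vessel and epithelial genes had smaller changes in that direction. Of 13 endothelial genes, 10 were higher at 15 weeks and lower at 20 weeks, against 26.7% of all genes, 13 had a negative change, and 7 had an unadjusted p under 0.05, against 5.47%. Their medians were 0.14 and -0.36. The 15-week median became -0.12 with the Gapdh covariate, and the 20-week median -0.23 without grouped replicate 2. At 20 weeks the list's mean was 9.36 to 9.87 in grouped mice and 9.73 in isolated replicate 4. The other isolated arrays were at 8.80 to 9.26. Kdr, the main receptor for VEGF, differed by 0.27 and -0.26 (change -0.53, SE 0.16, adjusted p = 0.225). Of 14 luminal genes, 10 had that order, with medians of 0.066 and -0.12, and of 10 basal genes 6 had it, with medians of 0.068 and -0.17. Oxtr, the oxytocin receptor of the contractile basal cells, had 8.98, 9.54, 10.11 and 9.82 in grouped and 10.13, 10.13, 10.19 and 10.14 in isolated mice at 15 weeks. At 20 weeks Oxtr had 9.43, 9.64, 9.90 and 9.67 in grouped and 8.81, 9.37, 9.18 and 9.28 in isolated mice. The groups were apart at both ages, in opposite order, with grouped replicate 3 at 15 weeks, at 10.11, just under the isolated arrays. The differences were 0.54 and -0.50, and the change was -1.04 (SE 0.26, adjusted p = 0.181). Without grouped replicate 1 the 15-week difference was 0.33, and the other Oxtr probe set had differences of 0.07 and -0.14. Foxa1, a pioneer factor of luminal cells, differed by 0.43 and -0.92 (change -1.36, SE 0.33, adjusted p = 0.181). With single arrays left out its 15-week difference ranged from 0.30 to 0.69, the latter without grouped replicate 3. Of the 14 milk genes that include Csn2, 6 were higher at 15 weeks and lower at 20 weeks, and the medians were 0.01 and -0.14. Csn1s2a, an alpha-S2 casein, differed by -0.56 and -2.85 (change -2.29, SE 0.64, adjusted p = 0.197), with all 4 isolated values at 20 weeks (5.95 to 6.52) below the lower quartile of the arrays, and Csn1s1, alpha-S1 casein, by -0.40 and -0.94 (change -0.54, adjusted p = 0.446). Csn2 and both of these caseins had negative differences at both ages, but at 15 weeks those were -0.02 for Csn2, -0.089 for Csn1s2a and -0.12 for Csn1s1 without grouped replicate 2. The keratinocyte list that includes Sprr2f had medians over 13 genes of 0.031 and 0.049.

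**Figure D3:**
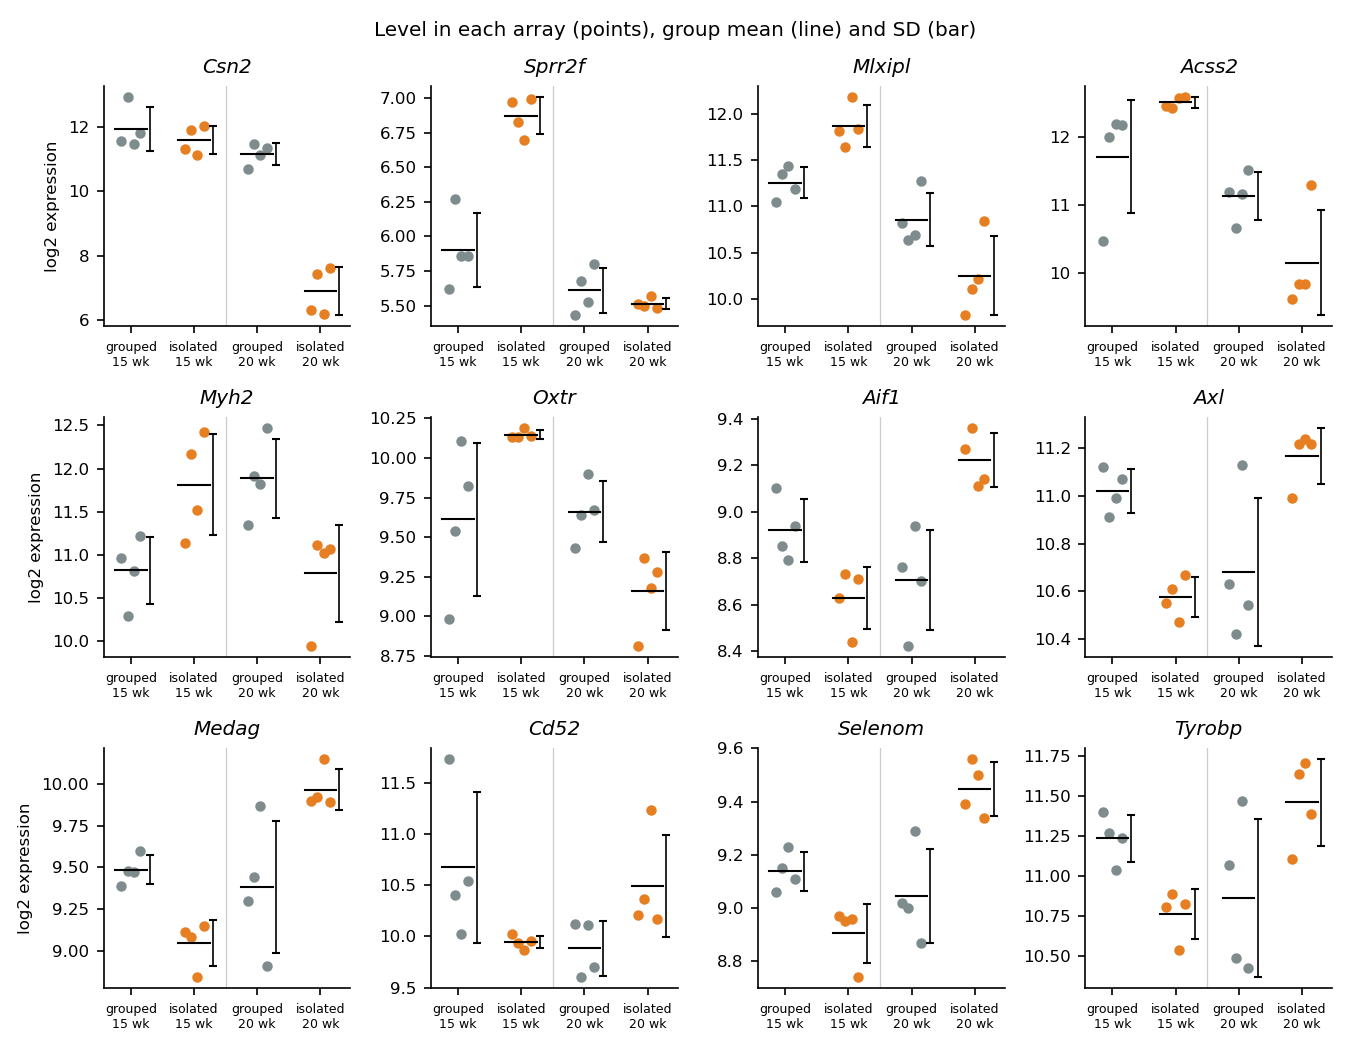
Log2 level on each array of 12 genes, by age and housing, each point 1 array, the line the mean and the bar the SD of 4 arrays. Csn2 drops to between 6.21 and 7.64 in isolated mice at 20 weeks, Oxtr, Aif1, Medag, Cd52 and Selenom are apart in opposite order at the 2 ages, and the Acss2 points show grouped replicate 1 at 10.47 and isolated replicate 4 at 11.30.

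Besides Myh2 and Mlxipl, the 12 genes with the smallest p-values for a negative change included genes outside the lists. Dusp26, a dual-specificity phosphatase, had 7.63, 7.57, 7.64 and 7.81 in grouped and 7.81, 7.87, 7.88 and 7.98 in isolated mice at 15 weeks. At 20 weeks it had 7.39, 7.55, 7.49 and 7.48 in grouped and 7.04, 7.25, 7.17 and 7.23 in isolated mice. The groups touched at 15 weeks and were apart at 20 weeks, and the differences were 0.22 and -0.31 (change -0.53, SE 0.089, adjusted p = 0.127). Sbk1, a kinase, differed by 0.77 and -0.38 (change -1.15, adjusted p = 0.127), with isolated replicate 4 at 20 weeks, at 10.63, inside the grouped range. Prodh, which starts the breakdown of proline, differed by 0.31 and -0.37 (adjusted p = 0.156), and Fn3k, which removes sugar bound to proteins, by 0.47 and -0.28 (0.156). In Mtarc1, a mitochondrial reductase, Pgm3, an enzyme of the hexosamine pathway, and Gprin2, the 15-week differences of 0.47, 0.55 and 0.39 were followed by -0.09, 0.078 and -0.11 at 20 weeks. Among the 24 genes with the smallest p in either direction, 12 for each, 22 had opposite signs at the 2 ages (54% of all genes) and 13 turned by the rule (1.04%). Ranking by the change between ages itself favours opposite signs, so nothing is read from these counts.

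Macrophage genes had the reverse order, lower in isolated mice at 15 weeks and higher at 20 weeks. Of 23, 22 had it, against 27.4% of all genes, and 18 had an unadjusted p under 0.05 for a positive change, against 7.24%. Their medians were -0.34 and 0.57, with a median change of 0.90, and 0 of 23 passed after adjustment. Aif1, Tyrobp, C1qb and C1qc turned by the rule, 4 of 23, against 0.687% of all genes in that direction. The upstream windows of Aif1, a calcium-binding protein also known as Iba1, at chr17:35176053-35176302 (minus strand) and of Cd53, a leukocyte tetraspanin, at chr3:106790150-106790399 (minus strand) are shown as examples of genes of this direction.
Aif1: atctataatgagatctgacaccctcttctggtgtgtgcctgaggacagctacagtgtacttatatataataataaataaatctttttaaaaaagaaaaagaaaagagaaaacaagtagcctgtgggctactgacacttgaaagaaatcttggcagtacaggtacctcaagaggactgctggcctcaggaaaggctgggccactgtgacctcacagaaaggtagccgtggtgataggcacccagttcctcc
Cd53: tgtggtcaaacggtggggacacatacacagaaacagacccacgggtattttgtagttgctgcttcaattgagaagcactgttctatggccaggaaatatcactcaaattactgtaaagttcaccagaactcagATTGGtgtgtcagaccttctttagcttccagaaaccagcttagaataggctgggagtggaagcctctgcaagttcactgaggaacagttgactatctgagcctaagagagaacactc
Cd53 has CCAAT on the opposite strand, in capitals, and none of the searched motifs was in the Aif1 window. Searched on both strands, CCAAT was found in 33.8% of 32851 RefSeq promoters, 40.0% of 60 promoters of genes that turned from higher to lower and 27.8% of 115 promoters of genes that turned from lower to higher. The E-box CACGTG, which ChREBP-type and MYC-type factors can bind, was in 6.02%, 11.7% and 7.83%, and CAGCTG in 13%, 18.3% and 13%. TATAAA was in 12.4%, 13.3% and 11.3%, TTCNNNGAA in 7.02%, 8.33% and 11.3%, and GAGGAAGT, letters that fit the myeloid factor PU.1, in 2.44%, 3.33% and 8.7%. The promoters belonged to 46 of 65 and 92 of 125 turning genes that matched the table, some with more than 1 start. The motifs were picked with the gene values known, and the shares are descriptions.

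Aif1 levels were 9.10, 8.85, 8.79 and 8.94 in grouped and 8.63, 8.73, 8.44 and 8.71 in isolated mice at 15 weeks. At 20 weeks they were 8.76, 8.42, 8.94 and 8.70 in grouped and 9.27, 9.36, 9.11 and 9.14 in isolated mice. The groups were apart at both ages in opposite order. The differences were -0.29 and 0.52, and the change was 0.81 (SE 0.15, adjusted p = 0.127). With single arrays left out that adjusted p ranged from 0.0227, without grouped replicate 3 at 20 weeks, to 0.291. Tyrobp, the signalling adaptor DAP12, had 11.40, 11.27, 11.04 and 11.24 in grouped and 10.81, 10.89, 10.54 and 10.83 in isolated mice at 15 weeks. At 20 weeks Tyrobp had 11.07, 10.49, 11.47 and 10.43 in grouped and 11.11, 11.64, 11.71 and 11.39 in isolated mice. At 20 weeks grouped replicate 3 was above isolated replicates 1 and 4, and otherwise the groups were apart. Its differences were -0.47 and 0.60 (change 1.07, SE 0.27, adjusted p = 0.181). The complement genes C1qb and C1qc differed by -0.36 and 0.74, and by -0.38 and 0.75. Cd163, a haemoglobin scavenger receptor, differed by -0.71 and 1.33 (SE of the change 0.85), and Csf1r, the receptor for macrophage growth factor, by -0.28 and 0.26, both outside the rule. The list's mean ranged from 10.62 to 10.93 in grouped and 10.21 to 10.60 in isolated mice at 15 weeks, without overlap, and from 10.10 to 11.24 and 10.51 to 11.38 at 20 weeks, with overlap. With single arrays left out the list's median change ranged from 0.74 to 1.16, the latter without grouped replicate 3 at 20 weeks. Its 20-week median ranged from 0.42 to 0.78.

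Axl, a receptor tyrosine kinase that binds Gas6, had 11.12, 10.91, 10.99 and 11.07 in grouped and 10.55, 10.61, 10.47 and 10.67 in isolated mice at 15 weeks. At 20 weeks Axl had 10.63, 10.42, 11.13 and 10.54 in grouped and 10.99, 11.22, 11.24 and 11.22 in isolated mice. The groups were apart at 15 weeks, and at 20 weeks grouped replicate 3 lay above isolated replicate 1. Its differences were -0.45 and 0.49, and the change was 0.93 (SE 0.17, adjusted p = 0.127). With single arrays left out that adjusted p ranged from 0.00111, without that grouped array, to 0.291. The second Axl probe set had a change of -0.062 at a mean level of 5.56, below the lower quartile of the arrays. Coro1a, a leukocyte actin regulator, had 11.66, 10.10, 10.00 and 10.31 in grouped and 9.84, 9.76, 9.65 and 9.81 in isolated mice at 15 weeks. At 20 weeks it had 10.04, 9.56, 10.35 and 9.60 in grouped and 10.25, 10.72, 11.29 and 10.39 in isolated mice. Its differences of -0.75 and 0.77 became -0.37 without grouped replicate 1 at 15 weeks and 0.57 without isolated replicate 3 at 20 weeks. Cd52, a glycoprotein of lymphocytes and macrophages, had 11.73, 10.40, 10.02 and 10.54 in grouped and 10.02, 9.94, 9.87 and 9.95 in isolated mice at 15 weeks. At 20 weeks Cd52 had 10.12, 9.60, 10.11 and 9.70, and 10.21, 10.36, 11.23 and 10.17, and its differences were -0.73 and 0.61 (adjusted p = 0.225 for the change). The Cd52 groups were apart at both ages, at 15 weeks only by a gap that the rounded 10.02 hides. Without grouped replicate 1 its 15-week difference was -0.38, and without isolated replicate 3 its 20-week difference was 0.36. Cd48, a leukocyte adhesion protein, differed by -0.57 and 0.72 (0.197), and Cd53 by -0.51 and 0.71 (0.194), or -0.33 at 15 weeks without grouped replicate 1. The unnamed-function genes AI662270 and AI467606 differed by -0.71 and 0.82, and by -0.58 and 0.53. The 15-week value of AI467606 was -0.36 without grouped replicate 1.

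**Figure D4:**
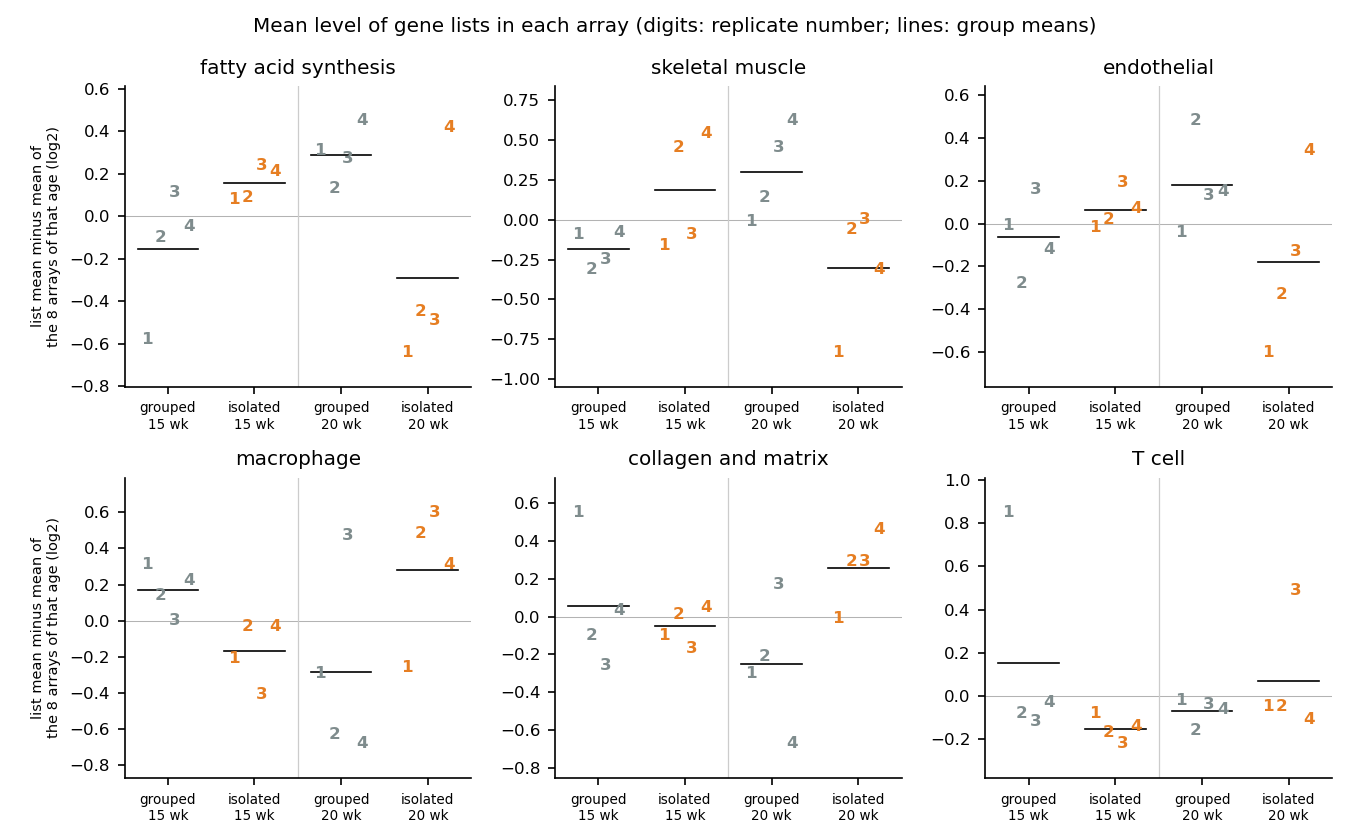
Mean log2 level of 6 gene lists on each array, minus the mean of the 8 arrays of the same age, with digits giving the replicate number. Fatty acid synthesis shows isolated replicate 4 at 20 weeks with the grouped arrays, and the T cell panel shows grouped replicate 1 at 15 weeks and isolated replicate 3 at 20 weeks above the rest.

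Antigen presentation and lymphocyte genes need more care. All 8 MHC class II genes were lower in isolated mice at 15 weeks and 7 were higher at 20 weeks, with medians of -0.48 and 0.23. Among them 7 had the full order, against 27.4% of all genes, and 5 had an unadjusted p under 0.05 for a positive change, against 7.24%. Without grouped replicate 1 the 15-week median was -0.28, and the 20-week median was 0.12 without grouped replicate 2 and 0.35 without grouped replicate 3. H2-DMa, which loads peptides onto class II molecules, had a change of 0.63, but its second probe set had -0.16. Of 11 T cell genes 9 were lower then higher, with medians of -0.31 and 0.069, and of 10 B and plasma cell genes 7, with -0.33 and 0.027. T cell means were 7.81 to 8.78 in grouped and 7.71 to 7.85 in isolated mice at 15 weeks, and 7.76 to 7.90 and 7.81 to 8.41 at 20 weeks. The value of 8.78 was grouped replicate 1 and that of 8.41 isolated replicate 3. Without grouped replicate 1 the T cell median at 15 weeks was -0.053 and the B and plasma cell median 0.009, and their changes were 0.096 and 0.13. Without isolated replicate 3 the T cell median at 20 weeks was -0.027. A B or T cell turn therefore rests on these 2 arrays. Mast cell proteases had replicates close together at 15 weeks and spread at 20 weeks. Mcpt4, a chymase, had 10.31, 10.45, 10.55 and 10.29 in grouped and 9.74, 9.70, 9.53 and 9.65 in isolated mice at 15 weeks. At 20 weeks it had 8.38, 7.96, 10.47 and 7.69 in grouped and 8.56, 10.00, 10.08 and 9.12 in isolated mice. The groups were far apart at 15 weeks, and at 20 weeks grouped replicate 3 was above all isolated arrays. Mcpt4 differed by -0.75 and 0.81 (change 1.56, SE 0.64, adjusted p = 0.331), carboxypeptidase Cpa3 by -0.71 and 0.66 (0.328) and tryptase Tpsb2 by -0.49 and 0.40 (0.305). Without grouped replicate 3 their 20-week differences were 1.43, 1.19 and 0.67. Mcpt4 and Tpsb2 had 0.50 and 0.21 without grouped replicate 4, Cpa3 had 0.34 without grouped replicate 2, and Tpsb2 had 0.62 and 0.25 without isolated replicates 1 and 3. Of 13 mast cell genes, 7 were lower then higher and 2 the reverse.

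Stromal genes were mostly lower in isolated mice at 15 weeks and higher at 20 weeks. Of 16 fibroblast genes, 14 were lower at 15 weeks and higher at 20 weeks, against 27.4% of all genes, with medians of -0.32 and 0.34, and 5 had an unadjusted p under 0.05 for a positive change, against 7.24%. Their 20-week median was 0.16 without grouped replicate 4, 0.22 without isolated replicate 4, 0.63 without grouped replicate 3 and 0.56 without isolated replicate 1. Of 18 collagen and matrix genes, 17 had that order, with medians of -0.086 and 0.49. The 15-week part of the matrix list was not stable: its median was 0.015 after cyclic loess, 0.032 with the actin 3′ to 5′ covariate and 0.021 without grouped replicate 1, when 7, 6 and 6 genes kept the order. Among 13 matrix proteases and inhibitors 9 had it, with medians of -0.12 and 0.17, and the 15-week median was -0.012 without grouped replicate 1. Aspn, the collagen-binding proteoglycan asporin, had 9.47, 9.46, 9.57 and 9.23 in grouped and 8.94, 8.82, 8.82 and 8.97 in isolated mice at 15 weeks. At 20 weeks Aspn had 8.29, 8.95, 9.27 and 7.42 in grouped and 8.82, 9.37, 10.63 and 9.54 in isolated mice. The groups were apart at 15 weeks and overlapped at 20 weeks, and the differences were -0.54 and 1.11 (change 1.65, SE 0.49, adjusted p = 0.216). Medag, a gene known from fat cell development, had 9.39, 9.48, 9.47 and 9.60 in grouped and 9.11, 9.08, 8.84 and 9.15 in isolated mice at 15 weeks. At 20 weeks Medag had 9.30, 9.44, 9.87 and 8.91 in grouped and 9.90, 9.92, 10.15 and 9.89 in isolated mice. The groups were apart at both ages, at 20 weeks by a narrow gap to grouped replicate 3. Its differences were -0.45 and 0.58 (change 1.03, SE 0.20, adjusted p = 0.131). S100a4, a calcium-binding protein of motile cells, differed by -0.33 and 0.93 (change 1.26, SE 0.24, adjusted p = 0.127), and the metalloprotease Adam12 by -0.23 and 0.51 (0.128). At 15 weeks S100a4 had -0.20 without grouped replicate 4 and Adam12 had -0.13 without grouped replicate 1. Has2, the hyaluronan synthase, did not turn, with -0.008 and 0.79 (change 0.80, SE 0.16, adjusted p = 0.131). Ecrg4, a secreted peptide precursor, differed by -0.53 and 0.73 (0.192), or 0.42 at 20 weeks without isolated replicate 1.

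Other genes with small p-values for a positive change had varied roles. Selenom, a selenoprotein of the endoplasmic reticulum, had 9.06, 9.15, 9.23 and 9.11 in grouped and 8.97, 8.95, 8.96 and 8.74 in isolated mice at 15 weeks. At 20 weeks Selenom had 9.02, 9.00, 9.29 and 8.87 in grouped and 9.39, 9.56, 9.50 and 9.34 in isolated mice, apart at both ages in opposite order. Its differences were -0.24 and 0.40, and its change was 0.64 (SE 0.12, adjusted p = 0.127). Rgs19, a regulator of G-protein signalling, was also apart at both ages, with differences of -0.23 and 0.29 (change 0.53, SE 0.10, adjusted p = 0.131). Pkib, an inhibitor of the cAMP-dependent kinase, differed by -0.25 and 0.42, and Lix1l by -0.19 and 0.46 (adjusted p = 0.127 for each change). The Pkib levels lay between 5.73 and 6.58, below the lower quartile of the arrays. Socs2, a feedback inhibitor of cytokine and growth hormone signalling, differed by -0.49 and 0.23 (0.13 without isolated replicate 4), and 3 of its 6 probe sets had a change of the same sign. Rgs13 differed by -0.21 and 0.20 at levels below the lower quartile of the arrays. Signalling genes of the ErbB and IGF families had medians of 0.019 and 0.045 over 17 genes, with 5 in each of the opposite orders. In 34 lists with 456 measured entries, 4 had a median change above 0.5 and 3 had one below -0.5.

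The probe sets without a single gene symbol, tested apart, numbered 10092: of these, 0 passed by limma, 781 had an unadjusted p under 0.05, and 51 (0.505%) turned. RNA integrity, read as the level of the 3′ Gapdh control minus that of the 5′ one, was -0.063 ± 0.025 and -0.013 ± 0.021 (SD, n = 4) in grouped and isolated mice at 15 weeks, and -0.014 ± 0.029 and -0.022 ± 0.031 at 20 weeks. The actin controls gave 0.256 ± 0.035, 0.281 ± 0.031, 0.218 ± 0.063 and 0.255 ± 0.049 in the same order. The Gapdh means of the 15-week groups lay further apart than either SD, and beyond the covariate fits its part in these results was not tested.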

How the data were processed

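Total RNA of mouse mammary gland was measured on 16 Affymetrix arrays. The authors deposited log2 values made with RMA in affy (version unstated), per the submitters' processing notes. Whether each age was processed on its own is not stated. Of 45101 probe sets, the platform table gave a single symbol to 34958, several to 932 and none to 9211, and 64 Affymetrix controls were left out. Names were matched to RefSeq GRCm38.p6, and the probe set of highest mean was kept for each of 18193 genes, with no filter on dim values. Arrays carry no read depth, so their number limits the precision.

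The change of the housing difference with age was fitted with limma 3.58.1 in R 4.3.3 (lmFit, eBayes with an intensity trend) on 16 arrays, with Benjamini-Hochberg adjustment over all genes. Differences at each age came from fits of their own 8 arrays. Unless another fit is named, adjusted p-values beside a gene belong to the change with age. The script was tested on simulated data. The named genes are the 12 of smallest p in each direction, the 8 turning genes of largest smaller difference in each direction, up to 4 members of each list described, and Acaca, Acly, Hk2, Csn2, Csn1s1, Mcpt4, Cpa3 and Tpsb2. Fasn, Scd1, Cd163, Csf1r, the other turning list members and the genes at the edge of the rule were added after their values were seen. Members, lists and rules were chosen with earlier results of these data known. Alternatives covered normalization, filters, probe sets, variance models, array weights, covariates, arrays left out and a replicate block.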

Additional observations from a re-analysis of the deposited data

Results flagged for a closer look

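The housing difference changed with age for Csn2 (-3.91) and Sprr2f (-1.07), the 2 genes past the threshold of the test between ages. A further 35 of 500 groups of 4 arrays (7%), over named genes and list means, held an array far from the other 3 by Dixon's test, which chance alone gives in about 1 in 20 groups. Levels below are log2.

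Grouped replicate 1 at 15 weeks stood apart 7 times. It was high in the T cell genes Cd3g (9.29) and Cd2 (7.62), in the B cell genes Cd79b (8.10) and Ms4a1 (9.51), and in the means of the T cell list (8.78) and the B and plasma cell list (9.18), and low in Acss2 (10.47). Isolated replicate 3 at 20 weeks stood apart 6 times, high in Cd3g (8.45), Cd79b (7.63), the lymphocyte homing receptor Ccr7 (8.35), the T cell mean (8.41), the epidermal keratin Krt10 (9.45) and Medag (10.15).

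Isolated replicate 4 at 20 weeks was high in Acaca (12.70), Acly (13.61), Acss2 (11.30) and Sbk1 (10.63). Isolated replicate 1 at 20 weeks was low in Myh2 (9.94), Pfkm (11.05), Foxa1 (8.10) and Axl (10.99). Among grouped arrays at 20 weeks, replicate 1 was low in Adam12 (9.66) and high in Il7r (8.91) and Retn (13.11). Replicate 4 was low in Krt10 (7.54) and in the ErbB and IGF mean (9.87), and replicate 3 in the cholesterol synthesis mean (10.03).

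At 15 weeks, isolated replicate 4 was high in Kit (11.45) and Lix1l (7.96) and low in Selenom (8.74), and isolated replicate 3 was low in Krt77 (7.51). Grouped replicate 2 was high in Lalba (9.49), replicate 3 was low in Myh7 (6.46) and high in Slc2a4 (11.92), and replicate 4 was high in the basal epithelium mean (10.07).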

How the results depend on the processing

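The count of genes passing the test of the change with age was 2. It was 1 among genes at or above the median level and 1 without the intensity trend, 778 with array weights (501 positive, 277 negative), 70 with the actin covariate, 78 with grouped replicate 1 at 15 weeks and isolated replicate 4 at 20 weeks both left out, and 0 to 139 with single arrays left out. With array weights, 4.28% of all genes passed, and 167 of the 190 turning genes (87.9%) did. The turning genes were picked by opposite differences on these same arrays, which favours passing, so nothing is read from that share. In that setting 15 of 23 fatty acid synthesis genes (negative) and 16 of 23 macrophage genes (positive) also passed. The count of passing genes was 2 with quantile normalization, cyclic loess, a robust prior, the Gapdh covariate, a variance per age, own-age fits combined and a threshold of 0.1. It was also 2 on the mean of all probe sets, which shared 1 gene with the 2. Taking each gene's most variable probe set gave 3.

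The count of 190 turning genes became 118 at or above the median level, where fewer genes are tested, 572 with array weights, 85 with the Gapdh covariate (43 of them among the 190), 14 at an unadjusted p under 0.01, and 79 to 358 with single arrays left out. With the actin covariate it was 232, of which 78 were among the 190, so most turning genes are not the same ones under either RNA quality covariate. The count of 41 genes apart in opposite order became 171 with both arrays out and 48 to 124 with single arrays left out, settings in which fewer arrays must be apart. Pearson's r across genes of -0.28 stayed negative in all settings in which it was computed. These did not include array weights, the replicate block or either RNA quality covariate.

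Among lists whose median change exceeded the spread of the list mean within groups, 3 medians turned. These were T cell genes at or above the median level (-0.015, 3 genes), and with the Gapdh covariate red blood cell genes (-0.04) and interferon genes (-0.003). Several lists with a median change inside that spread also turned with single arrays left out. For example, thermogenic fat genes ran from -0.787 to 0.055 and neutrophil genes from -0.054 to 0.105. The cause was not tested. Over named genes, 2740 recomputed changes kept direction and side of the threshold, 177 passed where they had not, 16 no longer passed, and 0 reversed.

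Replicate numbers paired the samples in part and not throughout. Of 24 pairs of same-numbered deviations, 10 correlated above 0.1 (range -0.302 to 0.488). The mean correlation was 0.071 for same-numbered pairs and -0.025 for pairs of other numbers. The own number correlated best in 21 of 48 comparisons, each a choice among 4 arrays. In all other groups, 0 arrays correlated best with their own number. What the numbers stand for is not stated in the labels and was not tested. With a replicate block, 8 genes passed (3 positive, 5 negative) and 415 turned (150 from higher to lower, 265 the reverse).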
